A study of Homo sapiens with 6 samples.

Results

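Heat shock proteins, J-domain (DNAJ) proteins and chaperonin subunits were followed in 5637 cells, an established human bladder carcinoma line, after knockdown of RAD51C. Genes were taken by symbol (HSPA, HSPB, HSPD, HSPE or HSPH with a number, HSP90, DNAJA, DNAJB or DNAJC with a number, TCP1 and the CCT genes). Of 78 such symbols in a table of 23024 genes, 60 had a mean level of at least 1 FPKM over the libraries, and 18 lay below it. FPKM is the read count of a gene scaled by its length and by the library's total. The genes were thus chosen by their mean FPKM over both groups, so their levels are a description, and none of the 60 entered through 1 group alone: in 0 genes was either group's mean under 1 FPKM. Just inside the threshold were HSPA1A and DNAJC28, with means of 1.33 and 1.63 FPKM, and just outside it DNAJC27 and CCT6B, with 0.715 and 0.560 FPKM.

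The sh-RAD51C group was 3 libraries of cells carrying a short hairpin RNA against RAD51C, with a knockdown genotype in the labels. The NC group was 3 libraries of the same line with a genotype given as WT. The labels state neither what NC stands for, nor the hairpin's sequence, nor whether libraries of 1 group came from separate cultures, so p-values measure the spread between libraries, which may be technical. All 6 libraries came from transfected cells of 1 line, and in such bulk RNA fewer cells of a type and less RNA per cell cannot be told apart.

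Chaperones bind proteins that are not yet folded or have lost their fold. In the cytosol, HSP70 proteins take up such chains with the help of J-domain proteins, which bring the substrate and start ATP hydrolysis, and of HSP110 proteins, which exchange the nucleotide. HSP90 then matures kinases, receptors and other clients, while the TRiC chaperonin (also called CCT), a double ring of related subunits, encloses actin, tubulin and other chains. The endoplasmic reticulum (ER) and the mitochondria have HSP70 and HSP90 systems of their own, and mitochondria also hold the chaperonin HSP60 with its lid HSP10. Heat shock factor acts through heat shock elements, repeats of GAA in alternating directions, and the ER branch is controlled in part by ATF6 and XBP1 through ER stress elements.

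The promoters of the chaperones with the highest levels in each compartment held one or the other element, and the stretches around them are shown. RefSeq promoters (GRCh38.p14) were searched in 300 bases, 250 before and 50 after each start, on both strands. The heat shock element was taken as 3 units, GAA and TTC in turn and beginning with either, with any 2 bases between units. The ER stress element was taken as CCAAT and CCACG with any 9 bases between them. Of the 60 genes, 54 had a promoter in the table. A heat shock element was found in 6 of them (HSP90AA1, HSP90AB1, HSPA8, HSPD1, DNAJB6 and, after its start, DNAJA1), against 0.608% of all 27305 genes. An ER stress element was found in HSPA5 and HSP90B1, against 0.0916% of all genes. A match describes letters, not a site in use. The part of these elements in the differences between groups was not tested. All genes with a heat shock element but DNAJB6 were called higher in sh-RAD51C in the results below. The share called higher was 50% of the 60 genes and 23.2% of all genes tested. HSPH1, DNAJB1, DNAJC2, HSPA9, HSPE1 and all 8 TRiC genes were also called higher, with no element found. None was found for HSPA1A or HSPA1B either, which were not called. HSPE1 had a promoter to search, but some of the 60 genes had none. The stretches, 5′ to 3′ on the gene's strand, have the GAA and TTC units, or the CCAAT and CCACG blocks (on the other strand ATTGG and CGTGG), in capitals:
HSP90AA1 (chr14:102087112-102087140, minus strand): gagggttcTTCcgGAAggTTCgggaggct
HSP90AB1 (chr6:44247823-44247851, plus strand): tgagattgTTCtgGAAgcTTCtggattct
HSPA8 (chr11:123062171-123062199, minus strand): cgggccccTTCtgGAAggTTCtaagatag
HSPD1 (chr2:197500062-197500090, minus strand): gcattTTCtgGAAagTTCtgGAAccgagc
DNAJB6 (chr7:157336865-157336893, plus strand): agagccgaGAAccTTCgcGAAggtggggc
HSPA5 (chr9:125241386-125241414, minus strand): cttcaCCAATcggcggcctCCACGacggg
HSP90B1 (chr12:103930316-103930344, plus strand): gggtgCGTGGtgcggcgcgATTGGtgggt
The elements began 88 bases before the start in HSP90AA1, 112 in HSP90AB1, 55 in HSPA8, 131 in DNAJB6, 66 in HSPA5 and 89 in HSP90B1. HSP90AB1, HSPA8 and HSP90B1 had a further element at 165, 230 and 194 bases before the start. In HSPD1 a pair of overlapping elements began 245 and 240 bases before the start. By the RefSeq starts, HSPD1 and HSPE1 run head to head on chromosome 2, 539 bases apart. This stretch, which ends 289 bases before the HSPE1 start, thus lies between those 2 starts. The GENCODE spans given below for HSP90AA1, HSP90AB1, HSPA8, HSPD1 and HSPE1 begin further upstream than the RefSeq starts used here. The stretches of HSP90AA1, HSP90AB1, HSPA8 and HSPD1 lie inside those spans.

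RAD51C itself, a gene of homologous recombination repair, averaged 3.18 ± 0.288 FPKM in sh-RAD51C and 13.8 ± 0.804 FPKM in NC (SD, n = 3 each), a log2 fold change of -1.83 ± 0.064 (SE; limma, Benjamini-Hochberg adjusted p = 7.16e-09). Inferred depth was 37104318 to 38079825 reads in sh-RAD51C libraries and 36068282 to 37560184 reads in NC libraries. Of 12 epithelial and urothelial markers 9 reached 1 FPKM, while UPK1B, UPK2 and UPK3A, which define differentiated urothelium, stayed near 0. The summed level of the 12 was 2664 to 2767 FPKM in sh-RAD51C and 2906 to 2997 FPKM in NC. Some single markers spread more widely over the 6 libraries, as KRT5 from 297 to 694 FPKM and KRT19 from 666 to 1099 FPKM. Fibroblast markers reached 1 FPKM in 1 of 7 (COL1A1), endothelial markers in 0 of 4 and blood markers in 1 of 5 (CD14), with COL1A2, DCN and PTPRC at or near 0. The fibroblast sum was 6.63 to 7.39 FPKM in sh-RAD51C and 9.75 to 10.5 FPKM in NC, the endothelial sum 0.331 to 0.446 FPKM in sh-RAD51C and 0.160 to 0.221 FPKM in NC, and the blood sum 0.377 to 0.962 FPKM in sh-RAD51C and 1.45 to 1.76 FPKM in NC. The part of these differences in the results was not tested.

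Cytosolic and mitochondrial chaperones were mostly higher in sh-RAD51C libraries, and those of the ER were not. Over all compartments 30 of the 60 genes (50%) were called higher and 7 (11.7%) lower, against 23.2% and 26.2% (49.4% either way) of the 11152 genes tested (limma on log2(FPKM + 1), adjusted p under 0.05). The groups did not overlap in 39 of the 60 genes, against 58.4% of all genes (27.6% higher and 30.8% lower). The median log2 fold change was 0.13, against -0.01 over all genes tested. In the cytosol and nucleus 21 of 33 genes were higher and 2 lower (median 0.17). In the mitochondria 6 of 7 were higher (median 0.34). In the ER 3 of 13 were higher and 3 lower (median -0.01), and of 7 genes with another or no fixed place 2 were lower (median -0.06). Compartments were assigned from textbook knowledge, with earlier results of these data known. These counts, above all that of the 7 mitochondrial genes, depend on that assignment. The 2 lower genes with another or no fixed place, DNAJC4 and DNAJC28, would add lower genes to any compartment they were moved to. Of the 37 calls, 28 held in every one of 15 alternative fits in which the gene was tested (24 higher and 4 lower), and 0 changed direction.

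**Figure D1:**
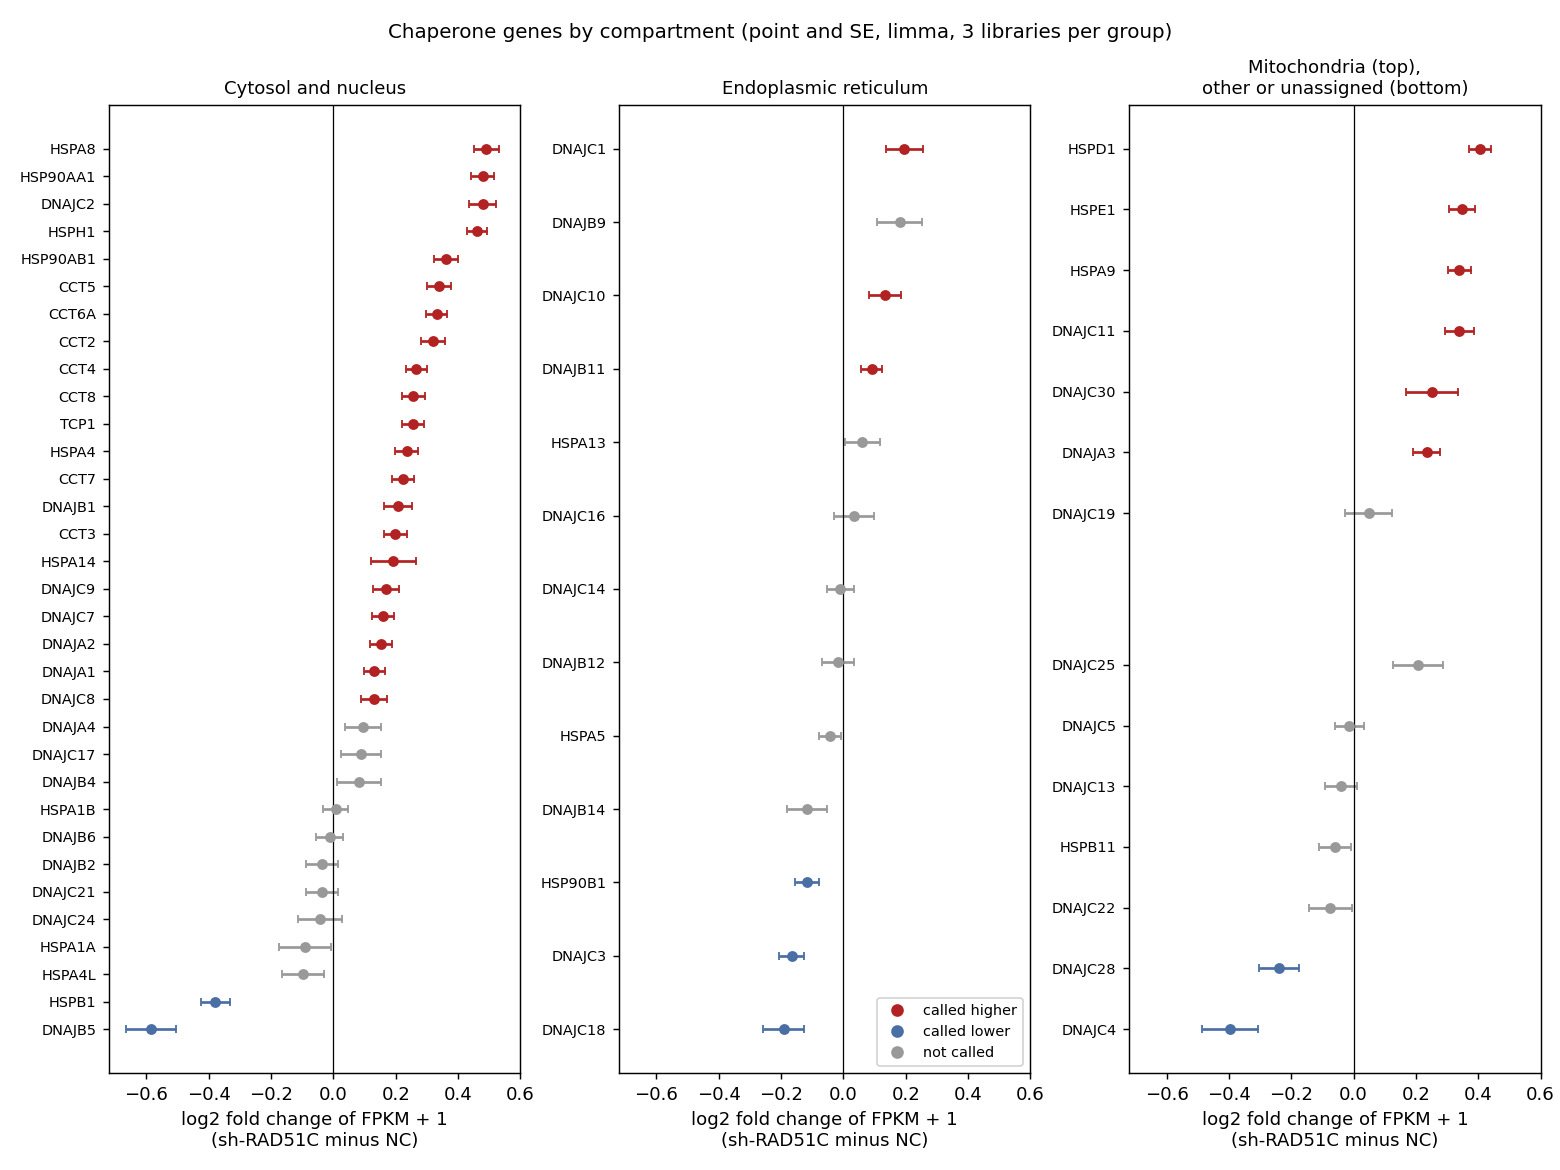
Log2 fold change of FPKM + 1 (sh-RAD51C minus NC, horizontal axis) of the 60 genes by compartment, with whiskers for the SE and colours for the call at an adjusted p under 0.05. Cytosolic genes reach 0.49 at HSPA8 and mitochondrial genes 0.40 at HSPD1, while ER genes lie between -0.19 and 0.20.

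Summed levels had the same order. The 60 genes added up to 6404, 6308 and 6223 FPKM in sh-RAD51C 1, 2 and 3, against 5295, 5301 and 5403 FPKM in NC 1, 2 and 3, so that every sh-RAD51C library lay above every NC library. This was 1.56% to 1.60% of a library's summed FPKM in sh-RAD51C and 1.31% to 1.35% in NC. Cytosolic genes summed to 4851 ± 70.6 FPKM in sh-RAD51C and 3941 ± 63.6 FPKM in NC (SD, n = 3 each), a 1.23-fold difference. Mitochondrial genes summed to 497 ± 11.2 FPKM in sh-RAD51C and 384 ± 7.34 FPKM in NC, 1.29-fold. ER genes summed to 884 ± 16.5 FPKM in sh-RAD51C and 925 ± 10.1 FPKM in NC, a ratio of 0.956. In none of these sums did the groups overlap, and exact permutation of the libraries, two-sided, gave p = 0.1 for each sum, the smallest possible with 3 against 3 (0.110 adjusted over 23 sums and ratios).

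Set against each other within a library, the compartments moved apart. The cytosolic sum was 5.55, 5.39 and 5.53 times the ER sum in sh-RAD51C 1, 2 and 3, against 4.19, 4.20 and 4.40 times in NC 1, 2 and 3. The mitochondrial sum was 0.563 ± 0.0128 times the ER sum in sh-RAD51C and 0.415 ± 0.0126 times in NC (SD, n = 3 each). Between cytosol and mitochondria the ratio was 9.75 ± 0.0810 in sh-RAD51C and 10.3 ± 0.0302 in NC. Each of these 3 ratios had groups that did not overlap (exact permutation p = 0.1). For the ratios to the ER sum this follows from the separate ranges of the sums themselves, so it adds no support. A ratio within a library does not depend on how that library was scaled.

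**Figure D2:**
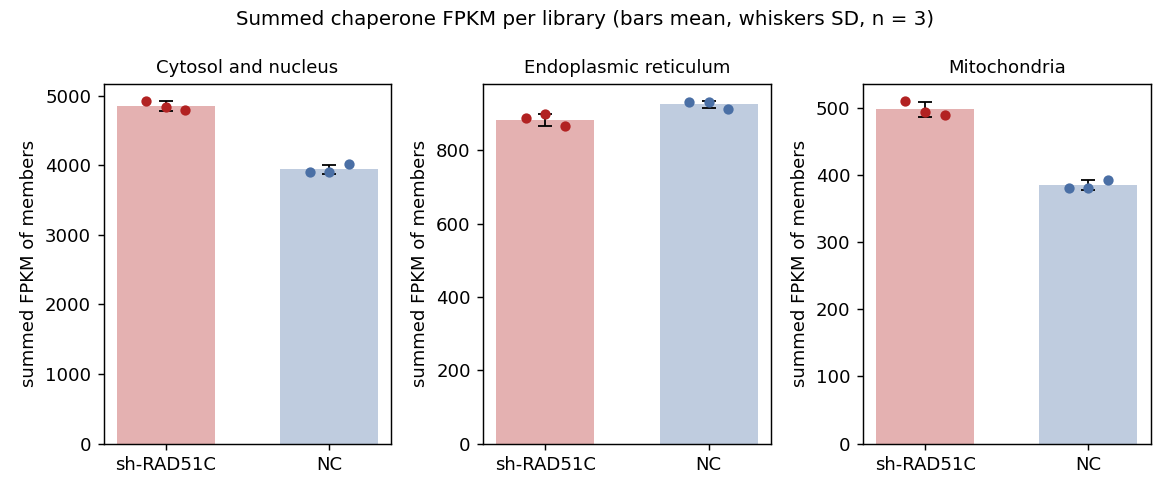
Summed FPKM (vertical axes, from 0) of the genes of the cytosol and nucleus, the ER and the mitochondria in each library, with bars for group means and whiskers for the SD (n = 3). In sh-RAD51C the means are 4851 FPKM in the cytosol, 884 FPKM in the ER and 497 FPKM in mitochondria, against 3941, 925 and 384 FPKM in NC.

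HSP90AA1, the inducible cytosolic HSP90, had the highest mean level of the 60. It stood at 824, 822 and 825 FPKM in sh-RAD51C 1, 2 and 3, against 585, 585 and 603 FPKM in NC 1, 2 and 3. Every sh-RAD51C library lay above every NC library, with 1.39 times the mean and a log2 fold change of 0.48 ± 0.037 (SE; adjusted p = 1.70e-06 in limma). The gene (ENSG00000080824.18) lies on chromosome 14 from 102080738 to 102139699, minus strand, in GENCODE 29. The constitutive form HSP90AB1 (chromosome 6, 44246166 to 44253888, plus strand) had 700, 699 and 683 FPKM in sh-RAD51C, against 533, 532 and 554 FPKM in NC. Its log2 fold change was 0.36 ± 0.038 (SE; adjusted p = 1.58e-05 in limma), again without overlap. The level of HSP90AA1 was 1.19 ± 0.0180 times that of HSP90AB1 in sh-RAD51C and 1.10 ± 0.00553 times in NC (SD, n = 3 each).

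HSPA8, the constitutive HSP70 of the cytosol (chromosome 11, 123057489 to 123063230, minus strand), showed the highest log2 fold change of FPKM + 1 among the 60, while by the ratio of mean FPKM DNAJC2 (1.414) stood just above it (1.406). Its levels were 755, 741 and 726 FPKM in sh-RAD51C and 516, 519 and 545 FPKM in NC. The libraries fell into separate ranges, and the log2 fold change was 0.49 ± 0.039 (SE; adjusted p = 2.22e-06 in limma). The stress-inducible HSP70 gene HSPA1B did not follow: it had 25.8, 25.2 and 24.0 FPKM in sh-RAD51C, against 24.8, 24.6 and 25.2 FPKM in NC. These ranges overlapped, with a log2 fold change of 0.01 and a 95% interval of -0.08 to 0.10 (limma adjusted p = 0.892). Its near-identical neighbour HSPA1A averaged 1.26 ± 0.207 FPKM in sh-RAD51C and 1.40 ± 0.127 FPKM in NC, and how reads were split between this pair is uncertain. HSPA14, the HSP70 at the ribosome, averaged 16.5 ± 0.784 FPKM in sh-RAD51C and 14.4 ± 1.71 FPKM in NC. It passed at 0.19 (limma adjusted p = 0.0441) with overlapping groups, and missed the threshold without sh-RAD51C 1 (0.121), sh-RAD51C 3 (0.122), NC 1 (0.0862) or NC 2 (0.186).

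The HSP110 proteins, which reset HSP70 by nucleotide exchange, were higher in 2 of 3 genes, against 23.2% of all genes tested. HSPH1 had 106, 105 and 105 FPKM in sh-RAD51C, against 77.0, 74.6 and 77.1 FPKM in NC. The ranges were far apart for their width, and its log2 fold change was 0.46 ± 0.033 (SE; adjusted p = 8.90e-07 in limma). HSPA4 averaged 45.8 ± 0.934 FPKM in sh-RAD51C and 38.8 ± 0.971 FPKM in NC (log2 fold change 0.24, limma adjusted p = 0.000297). HSPA4L, at 3.11 ± 0.130 FPKM in sh-RAD51C and 3.40 ± 0.293 FPKM in NC, was not called (-0.10, limma adjusted p = 0.255). HSPH1 was 0.142 ± 0.00232 times HSPA8 in sh-RAD51C and 0.145 ± 0.00395 times in NC, where the groups overlapped (exact permutation p = 0.5).

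**Figure D3:**
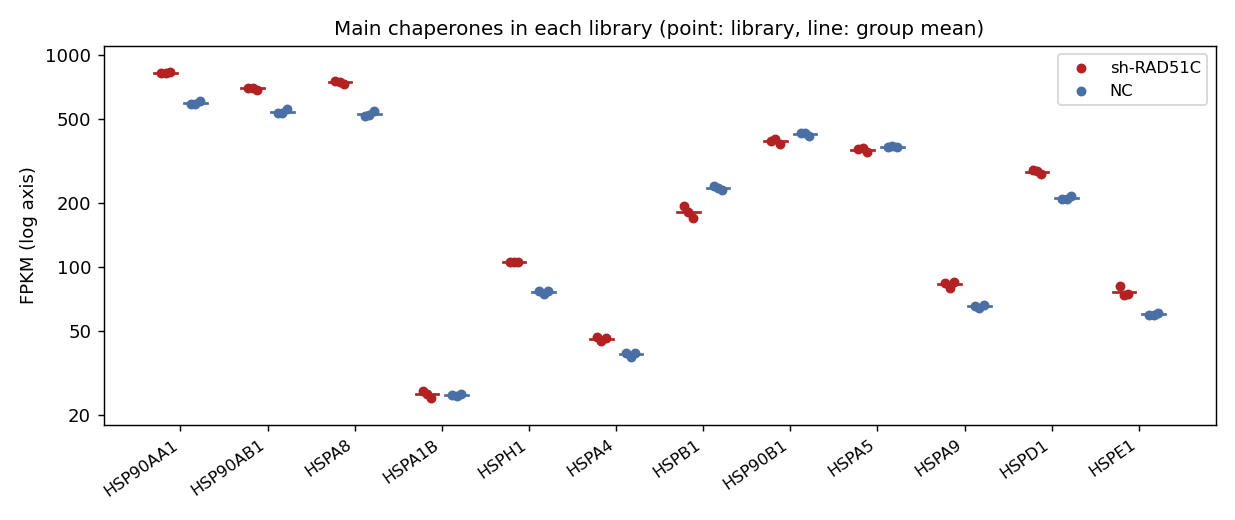
FPKM (vertical log axis) of 12 chaperones in each library, with sh-RAD51C left of NC and lines for group means. HSP90AA1, HSP90AB1, HSPA8, HSPH1, HSPA4, HSPA9, HSPD1 and HSPE1 lie higher in every sh-RAD51C library, HSPB1, HSP90B1 and HSPA5 lower, and HSPA1B overlaps.

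Small heat shock proteins hold unfolding chains without using ATP. HSPB1 (HSP27; chromosome 7, 76302544 to 76304295, plus strand) was lower, at 193, 182 and 169 FPKM in sh-RAD51C, against 240, 236 and 231 FPKM in NC. All sh-RAD51C values lay under all NC values, a 1.3-fold lower mean with a log2 fold change of -0.38 ± 0.047 (SE; adjusted p = 5.68e-05 in limma). It moved against the other abundant cytosolic chaperones. HSPB11, which carries a small heat shock protein's name but belongs to the intraflagellar transport machinery, had 20.6 ± 1.16 FPKM in sh-RAD51C and 21.5 ± 1.01 FPKM in NC and was not called (-0.06, limma adjusted p = 0.357).

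Among cytosolic and nuclear J-domain genes, 7 of 15 were higher and 1 was lower, against 23.2% higher and 26.2% lower of all genes tested. DNAJC2, which works with HSPA14 on chains leaving the ribosome, had 27.0, 26.4 and 28.4 FPKM in sh-RAD51C, against 19.6, 19.7 and 18.5 FPKM in NC. This placed it beside HSPA8 and HSP90AA1 in size, with no overlap and a log2 fold change of 0.48 ± 0.043 (SE; adjusted p = 5.54e-06 in limma). DNAJA1, the J-domain gene with the highest level, averaged 193 ± 4.69 FPKM in sh-RAD51C and 176 ± 1.41 FPKM in NC (0.13, limma adjusted p = 0.00749). DNAJC7, which links HSP70 and HSP90, averaged 87.2 ± 2.87 FPKM in sh-RAD51C and 77.9 ± 0.714 FPKM in NC (0.16, limma adjusted p = 0.00318). The others called higher were DNAJB1, the inducible HSP40, at 0.21, the histone chaperone DNAJC9 at 0.17, DNAJA2 at 0.15 and DNAJC8 at 0.13 on the log2 scale. DNAJC8, a splicing-associated gene, missed the threshold without sh-RAD51C 1 (limma adjusted p = 0.0618), sh-RAD51C 2 (0.0732), NC 1 (0.0559) or NC 2 (0.0780).

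The level of DNAJA1 was 0.260 ± 0.00826 times that of HSPA8 in sh-RAD51C and 0.334 ± 0.0121 times in NC (SD, n = 3 each). Those groups did not overlap (exact permutation p = 0.1). DNAJB6, a suppressor of protein aggregation, had 59.0, 58.8 and 61.5 FPKM in sh-RAD51C, against 61.9, 62.3 and 56.6 FPKM in NC. These ranges overlapped (log2 fold change -0.01, 95% interval -0.11 to 0.08, limma adjusted p = 0.842). DNAJB5, named after its values were seen, had the largest fall of the 60. It stood at 2.68, 2.06 and 2.20 FPKM in sh-RAD51C, against 3.75, 4.36 and 3.79 FPKM in NC, with no overlap and a log2 fold change of -0.59 ± 0.081 (SE; adjusted p = 0.000137 in limma).

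All 8 genes of the TRiC chaperonin were higher in sh-RAD51C, by 0.20 (CCT3) to 0.34 (CCT5) on the log2 scale, with limma adjusted p from 1.12e-05 to 0.000986. TCP1, the alpha subunit, had 267, 267 and 266 FPKM in sh-RAD51C, against 219, 219 and 232 FPKM in NC. CCT5 had 176, 169 and 163 FPKM in sh-RAD51C, against 131, 132 and 137 FPKM in NC. In each of the 8 the lowest sh-RAD51C library stood above the highest NC library, as it did in 27.6% of all genes tested. CCT3, the subunit with the highest level, had 311, 293 and 293 FPKM in sh-RAD51C, against 260, 259 and 262 FPKM in NC. CCT6A and CCT2 were higher by 0.33 and 0.32, and CCT4, CCT8, TCP1 and CCT7 by 0.27, 0.26, 0.26 and 0.22. The subunits, which are built into the complex in equal numbers, summed to 1678, 1639 and 1622 FPKM in sh-RAD51C, against 1350, 1358 and 1404 FPKM in NC. All 8 calls held in each of 15 alternative fits. Exons of TCP1 overlap ACAT2 on the opposite strand, and strand use in counting is not given in the sources used here.

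**Figure D4:**
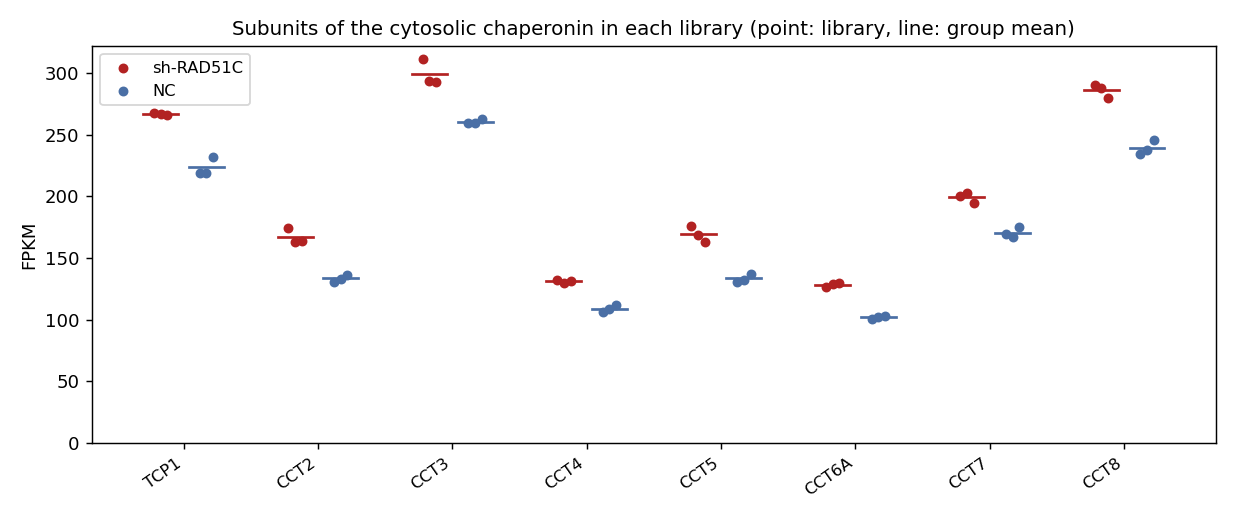
FPKM (vertical axis, from 0) of the 8 TRiC genes in each library, with sh-RAD51C left of NC and lines for group means. The groups are apart in every subunit, from a mean of 128 FPKM in sh-RAD51C against 102 FPKM in NC for CCT6A to 299 FPKM in sh-RAD51C against 260 FPKM in NC for CCT3.

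In the mitochondria the core chaperones were higher together. HSPD1, the HSP60 barrel (chromosome 2, 197486581 to 197516737, minus strand), had 285, 282 and 273 FPKM in sh-RAD51C, against 208, 210 and 216 FPKM in NC. Its lid HSPE1 (197499994 to 197503457, plus strand) had 81.0, 73.5 and 74.1 FPKM in sh-RAD51C, against 58.9, 59.4 and 60.5 FPKM in NC. Neither gene's groups overlapped, with log2 fold changes of 0.40 ± 0.035 (limma adjusted p = 4.14e-06) for HSPD1 and 0.35 ± 0.042 (limma adjusted p = 4.92e-05) for HSPE1. The level of HSPD1 was 3.68 ± 0.158 times that of HSPE1 in sh-RAD51C and 3.55 ± 0.0239 times in NC, with overlapping groups (exact permutation p = 0.4). The annotated exons of these neighbours overlap, so reads in the shared part are uncertain.

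HSPA9 (mortalin), the mitochondrial HSP70 that also draws proteins through the inner membrane, had 84.0, 79.4 and 85.2 FPKM in sh-RAD51C, against 65.3, 64.2 and 66.3 FPKM in NC. The ranges were separate, and its log2 fold change was 0.34 ± 0.037 (SE; adjusted p = 2.36e-05 in limma). DNAJC11, a J-domain protein tied to the cristae-organising complex, averaged 28.3 ± 0.269 FPKM in sh-RAD51C and 22.2 ± 1.39 FPKM in NC (0.34, limma adjusted p = 0.000123). DNAJA3, a partner of HSPA9, averaged 17.6 ± 0.480 FPKM in sh-RAD51C and 14.8 ± 0.435 FPKM in NC (0.23, limma adjusted p = 0.000925). DNAJC30 passed at 0.25 (limma adjusted p = 0.0251), but not without sh-RAD51C 1 (0.0618), NC 1 (0.0827) or NC 3 (0.0550). DNAJC19, an inner-membrane protein, averaged 7.54 ± 0.860 FPKM in sh-RAD51C and 7.24 ± 0.473 FPKM in NC and was not called (0.05, limma adjusted p = 0.621).

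The main ER counterparts stood at or under their NC levels. HSPA5 (BiP), the HSP70 of the ER, had 358, 365 and 347 FPKM in sh-RAD51C, against 368, 369 and 366 FPKM in NC. The groups just missed each other, but the difference did not pass the test, with a log2 fold change of -0.04 and a 95% interval of -0.12 to 0.03 (limma adjusted p = 0.320). HSP90B1 (GRP94), the HSP90 of the ER, had 391, 399 and 379 FPKM in sh-RAD51C, against 429, 428 and 412 FPKM in NC. It was lower without overlap, at -0.12 ± 0.038 (SE; adjusted p = 0.0228 in limma). That call was lost without sh-RAD51C 3 (0.0625), NC 1 (0.0947) or NC 2 (0.1), and after setting libraries to the same median (0.0945).

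Within 1 protein family, paralogs of different compartments changed in ratio. HSPA8 was 2.11, 2.03 and 2.09 times HSPA5 in sh-RAD51C 1, 2 and 3, against 1.40, 1.41 and 1.49 times in NC 1, 2 and 3. HSP90AA1 was 2.12 ± 0.0587 times HSP90B1 in sh-RAD51C and 1.40 ± 0.0579 times in NC, and HSPA9 was 0.232 ± 0.0138 times HSPA5 in sh-RAD51C and 0.177 ± 0.00350 times in NC (SD, n = 3 each). In all 3 ratios each sh-RAD51C library lay above each NC library (exact permutation p = 0.1). HSPA8, HSP90AA1 and HSPA9 were each higher in every sh-RAD51C library, and HSPA5 and HSP90B1 lower. The separation of the ratios thus follows from the single genes and adds no support.

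J-domain genes of the ER went both ways and by little. DNAJC3 (P58IPK), which delivers unfolded chains to HSPA5, had 18.1, 18.2 and 19.0 FPKM in sh-RAD51C, against 20.9, 20.3 and 21.4 FPKM in NC. It was lower without overlap (-0.17 ± 0.041 SE; adjusted p = 0.00591 in limma), and that call held in all 15 alternative fits. DNAJC18 was lower at -0.19 (limma adjusted p = 0.0330), from 1.89 ± 0.0432 FPKM in sh-RAD51C and 2.30 ± 0.196 FPKM in NC. DNAJC1, a membrane protein of the ER, was higher, at 7.72 ± 0.231 FPKM in sh-RAD51C and 6.62 ± 0.474 FPKM in NC (0.20, limma adjusted p = 0.0162). DNAJC10 (ERdj5), a disulfide reductase, and DNAJB11 (ERdj3), a soluble partner of HSPA5, passed at 0.13 and 0.09 (limma adjusted p = 0.0491 and 0.0454). DNAJB9 (ERdj4) averaged 2.74 ± 0.302 FPKM in sh-RAD51C and 2.30 ± 0.0747 FPKM in NC, which did not pass (0.18, limma adjusted p = 0.0572) except in 6 alternatives, among them without sh-RAD51C 2 (0.0169).

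Most of these ER calls lay near the threshold and were lost in fits with 5 libraries, while the log2 fold changes kept their direction. DNAJC1 was lost without NC 3 (0.14, limma adjusted p = 0.0695). DNAJC18 was lost without sh-RAD51C 1 (0.0568), sh-RAD51C 2 (0.0836), sh-RAD51C 3 (0.0531) or NC 2 (0.149), where its log2 fold change was -0.20 to -0.14. DNAJC10 was lost without any 1 of the 6 libraries (adjusted p 0.0519 to 0.142, log2 fold change 0.12 to 0.15), and DNAJB11 without any but sh-RAD51C 2 (0.0747 to 0.143, log2 fold change 0.07 to 0.10). The number of ER genes called higher was 0 without NC 3, 3 without sh-RAD51C 2 and 1 without any other library, and the number called lower was 1 without NC 2, 3 without NC 3 and 2 otherwise.

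Of the 7 genes with another or no fixed place, DNAJC4 had 7.64, 6.75 and 5.44 FPKM in sh-RAD51C, against 8.91, 9.31 and 8.64 FPKM in NC. It was lower without overlap (-0.40 ± 0.089 SE; adjusted p = 0.00348 in limma), and its exons overlap those of NUDT22. DNAJC28, also lower, averaged 1.41 ± 0.0389 FPKM in sh-RAD51C and 1.85 ± 0.0916 FPKM in NC (-0.24, limma adjusted p = 0.00921). DNAJC5, the cysteine string protein of secretory vesicles, averaged 30.2 ± 1.88 FPKM in sh-RAD51C and 30.5 ± 0.440 FPKM in NC and was not called (-0.01, limma adjusted p = 0.818). DNAJC25 missed the threshold at 0.21 (limma adjusted p = 0.0503) and passed without NC 3 (0.00420). The 18 genes under 1 FPKM included the inducible HSP70 gene HSPA6, at 0.315 ± 0.0327 FPKM in sh-RAD51C and 0.365 ± 0.163 FPKM in NC, and the mitochondrial DNAJC15, at 0.0322 ± 0.0223 FPKM in sh-RAD51C and 0.0325 ± 0.0121 FPKM in NC. HSPB8, named after its values were seen, had 0.579, 0.768 and 0.665 FPKM in sh-RAD51C, against 0.209, 0.186 and 0.329 FPKM in NC, and was not among the genes tested.

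Partner genes were counted by list in the same fit. Of 25 tested cochaperones of cytosolic HSP70 and HSP90, 15 (60%) were higher, against 23.2% of all genes, with a median log2 fold change of 0.19. CHORDC1, an HSP90 cochaperone, had 34.8, 31.1 and 31.6 FPKM in sh-RAD51C, against 19.2, 18.2 and 19.3 FPKM in NC. These were widely separate ranges, 1.72 times the mean, with a log2 fold change of 0.75 ± 0.049 (SE; adjusted p = 4.75e-07 in limma), larger than that of any of the 60 genes. The cyclophilin PPID, TOMM34, which bridges HSP70 and HSP90, and CACYBP were higher by 0.41, 0.36 and 0.28. Prefoldin hands actin and tubulin to TRiC, and of 18 prefoldin subunits and chaperonin helpers 9 (50%) were higher and 2 (11.1%) lower (median 0.13). PDCL3, PDCD5, PDRG1 and URI1 were higher by 0.42, 0.33, 0.31 and 0.27. The 2 lower were UXT (-0.14, limma adjusted p = 0.0259) and PDCL (-0.17, 0.0337), and their number was 0 without sh-RAD51C 2, NC 1 or NC 2 and 1 without sh-RAD51C 1 or sh-RAD51C 3.

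In the mitochondria the median log2 fold change of 14 partners was 0.05, and 5 (35.7%) were higher, against 23.2% of all genes. They were the presequence protease PITRM1 at 0.62, GRPEL1, the nucleotide exchange factor of HSPA9, at 0.46, the import motor subunit TIMM44 at 0.45, the disaggregase CLPB at 0.25 and TRAP1, the mitochondrial HSP90, at 0.23. GRPEL1 averaged 24.4 ± 0.746 FPKM in sh-RAD51C and 17.4 ± 1.41 FPKM in NC (limma adjusted p = 4.12e-05). TRAP1 averaged 50.5 ± 1.38 FPKM in sh-RAD51C and 43.0 ± 0.909 FPKM in NC (limma adjusted p = 0.000396). The other 9, the proteases LONP1 and CLPP among them, were not called.

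Of 18 tested ER folding partners 2 (11.1%) were higher (median 0.01), against 23.2% of all genes. They were SDF2L1 at 0.17 and the disulfide isomerase P4HB at 0.11 (limma adjusted p = 0.0140 and 0.0280). Of the 21 listed, ERO1B, TXNDC5 and FKBP2 averaged under 1 FPKM over the libraries and were not tested. ERO1B averaged 0.665 ± 0.0942 FPKM in sh-RAD51C and 1.30 ± 0.0365 FPKM in NC. TXNDC5 went the other way, with 0.792 ± 0.0733 FPKM in sh-RAD51C and 0.591 ± 0.105 FPKM in NC (SD, n = 3 each). PDIA4 at -0.09 and HYOU1 at 0.09 were not called (0.0597 and 0.0648). Without NC 1 both calls were lost (SDF2L1 0.0629, P4HB 0.0793), P4HB was also lost without sh-RAD51C 2 (0.0668), NC 2 (0.0991) or NC 3 (0.0730), and without sh-RAD51C 1 both PDIA4 (0.0180) and HYOU1 (0.0459) passed. Of 10 ER stress sensors and factors 3 (30%) were lower (median 0.03), a share near the 26.2% of all genes. XBP1, a transcription factor of the unfolded protein response, had 39.1, 40.0 and 38.2 FPKM in sh-RAD51C, against 50.4, 53.0 and 50.5 FPKM in NC. These ranges were separate, with a log2 fold change of -0.38 ± 0.037 (SE; adjusted p = 8.97e-06 in limma). SEL1L and EDEM1, which act in disposal of misfolded ER proteins, were lower by -0.16 and -0.15 (limma adjusted p = 0.0271 and 0.0306). The number of these lower genes was 1 without sh-RAD51C 1 or any 1 NC library, and 2 without sh-RAD51C 2.

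The genes for the heat shock factors and their binding protein were not called: limma called 0 of 4, 0 had an unadjusted p under 0.05, and voom on inferred reads also called 0. HSF1, the main heat shock factor, averaged 39.8 ± 1.06 FPKM in sh-RAD51C and 37.6 ± 1.93 FPKM in NC (0.08, limma adjusted p = 0.145). Without NC 3 it passed (0.0413). HSF2 and HSBP1 stood at -0.01 and -0.03, and HSF4 at -0.21, which passed without sh-RAD51C 2 (0.0129).

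**Figure D5:**
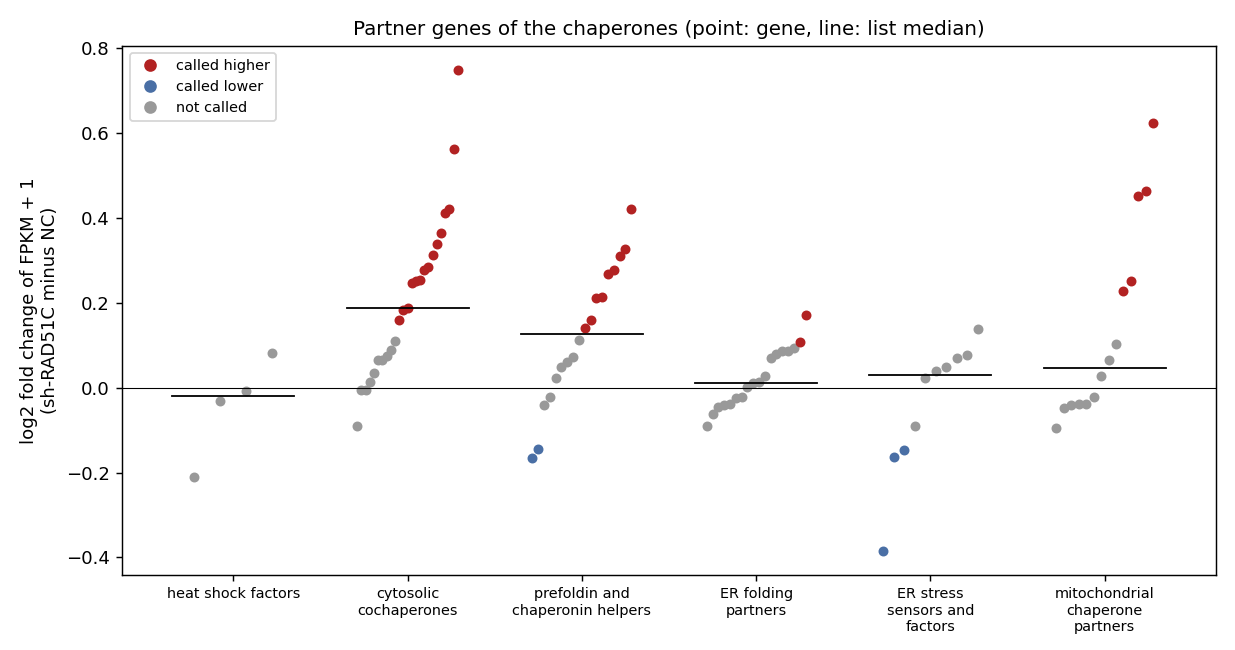
Log2 fold change of FPKM + 1 (sh-RAD51C minus NC, vertical axis) of the tested partner genes in 6 lists, a point for each gene and a line for the list's median. Medians are 0.19 for cytosolic cochaperones and 0.13 for prefoldin and chaperonin helpers, and 0.01, 0.03 and 0.05 for the ER folding, ER stress and mitochondrial lists.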

How the data were processed

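The authors deposited FPKM values for gene symbols. According to the submitters' processing notes, hg38 was the build, and R 3.2.0 and DESeq2 are named with no role. Aligner, counting program and strand setting: not given in the sources used here. The labels' protocols give TRIzol extraction of total RNA and the VAHTS Universal V6 library kit. Columns were matched by library title.

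In the 11152 genes whose mean reached 1 FPKM, log2(FPKM + 1) was fitted by group in limma 3.58.1 under R 4.3.3 (trend on, no covariates). P-values were adjusted over all of them after Benjamini and Hochberg, and calls are at an adjusted p under 0.05. Fold changes on this scale understate those of low genes. Whole reads were inferred from the FPKM steps (within 0.001 reads) for 11151 of these genes and served for depth and for voom. On simulated libraries of 11151 genes for sh-RAD51C against NC the fit called 62% of 100 genes changed 1.2-fold and 100% of 100 changed 1.5-fold. It also called 16 of 10951 unchanged genes. The simulated spread was the same for every gene and library, and few genes were changed, so these rates need not hold in the real libraries. Sums were compared by exact two-sided permutation tests in Python 3.11.15, with the Benjamini-Hochberg adjustment over the sums in scipy 1.17.1.

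The genes, compartments, partner lists and naming rule were chosen with earlier results of these data known. Named are, by compartment, up to 5 rises and 5 falls among called genes without overlap whose higher group reached 5 FPKM, the gene of highest mean FPKM over both groups in each family, all TRiC subunits and, by partner list, the 4 genes with the smallest p; other genes were picked with their values known. GENCODE 29 on GRCh38 gave the positions; promoters are from RefSeq. Exons of 30 of the 60 genes overlap another annotated gene and 18 have annotated pseudogenes (26 for HSPE1, 17 each for HSPA8 and HSPD1), so reads may be shared. Libraries of 1 group differed by more than sampling noise and were kept as separate samples.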

Additional observations from a re-analysis of the deposited data

How the results depend on the processing

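No called gene among the 60 changed direction in 15 alternative fits; 9 of 37 calls were lost in some and 4 of 23 uncalled genes passed in some. Alternatives were another pseudocount, no filter, a minimum of 5 FPKM, 3 rescalings, no variance trend, a replicate block, voom on inferred reads and omission of each library. A minimum change of 0.25 on the log2 scale, chosen after seeing the data, left 16 genes higher and 3 lower of the 60 (1414 and 1790 of all genes), 11 higher in the cytosol, 0 higher and 0 lower in the ER, 1 lower elsewhere, 5 higher and 0 lower prefoldin and chaperonin helpers, 0 higher ER folding partners and 1 lower ER stress gene. A minimum of 5 FPKM left 4 genes lower (1859 of all genes), 1 of them cytosolic and 1 elsewhere, and 1 lower cochaperone. Without a filter 1 ER gene was lower, as were 0 prefoldin helpers and 1 ER folding partner, with 0 higher ER folding partners. Quantile normalization gave 1 higher and 1 lower gene elsewhere and 1 lower gene in each of the cochaperone, prefoldin, ER folding and mitochondrial lists. Same-median and median-of-ratios scaling gave 1 higher gene elsewhere and 0 lower prefoldin helpers, no variance trend gave 0 lower prefoldin helpers and 1 higher ER folding partner, and voom gave 1 lower gene elsewhere, 1 lower cochaperone and 1 lower ER folding partner.

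With 1 library left out, ER genes called higher ranged from 0 to 3 and lower from 1 to 3, and genes called higher elsewhere from 0 to 1. Heat shock factors ranged from 0 to 1 either way, lower cochaperones from 0 to 1, lower prefoldin helpers from 0 to 2, higher and lower ER folding partners from 0 to 3 and 0 to 2, and lower ER stress genes from 1 to 3. The cause was not tested for any of these. Without the gene of highest level, log2 ratios of summed FPKM were 0.21 in all, 0.27 in the cytosol, -0.023 in the ER and 0.33 in mitochondria, which shows how far 1 gene weighs in each sum.

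Same-numbered libraries deviated together with correlations of 0.19, 0.026 and 0.091, against -0.167 to 0.11 for libraries with different numbers. These values do not settle whether the numbers pair the libraries. With the replicate block 30 of the 60 genes were higher and 7 lower (2601 and 2968 of all genes), with 1 higher elsewhere.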
